A study of Rattus norvegicus with 13 samples.

Results

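The 90 genes described here encode parts of the cilium, factors that help to build it or regulators of its formation. They were measured in the ventricular zone (VZ) of newborn rats. They were chosen by gene name, as every transcript with a mean of at least 10 normalized counts over all pups whose gene name belongs to the families Ift, Bbs, Dnah, Dnai, Dnaaf, Cfap, Tekt, Rsph or Drc, or is Gmnc or Mcidas. They are 90 of the 14606 transcripts that passed this minimum, out of 14716 in all, and each gene is represented by 1 transcript. No transcript of these families lay under the minimum, and the gene closest above it was Dnah8, with a mean of 12.4 normalized counts. Foxj1, which the choice also names, is not analysed here. The genes fall into 21 that serve transport in the cilium (13 Ift, 8 Bbs), 67 of the motile axoneme (10 Dnah, 5 Dnai, 9 Dnaaf, 31 Cfap, 4 Tekt, 5 Rsph, 3 Drc) and 2 regulators of multiciliated cells.

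RNA was sequenced from the posterior VZ, cut out by laser capture microdissection, of male Long Evans pups on postnatal day 2 (PN2), with 1 pup taken from each litter. Dams of the PTU group drank water with 3 ppm propylthiouracil (PTU), a drug that blocks thyroid hormone synthesis, and control dams drank water with 0 ppm. There were 7 control and 6 PTU exposed pups. The question was how the VZ transcriptome differs when thyroid hormone is reduced in the developing animal. PTU reached the pups through the dam, so an effect of low thyroid hormone and any other effect of the drug cannot be told apart in these groups.

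A cilium is a hair-like extension of the cell surface built around a ring of doublet microtubules, the axoneme. Almost every cell can carry a single, immotile primary cilium, which radial glia of the VZ extend into the ventricle and which serves in signalling, whereas ependymal cells and the choroid plexus carry tufts of cilia. Motile axonemes add dynein arms, radial spokes and the nexin-dynein regulatory complex to the doublets, while intraflagellar transport (Ift) carries parts along the axoneme of every cilium and the BBSome (Bbs) sorts membrane proteins in it. In rodents the radial glia that will become ependymal cells begin to make many cilia around birth and in the first postnatal days.

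The low normalized counts of each pup were whole multiples of a common step in 89.96 to 91.67% of cases (within 0.1 of a step), which gives a rough estimate of the depth, 22295808 to 43511582 reads in the controls and 28416307 to 44392207 in the PTU exposed pups, but not the reads of each gene. The 3 most abundant transcripts took 32.4 to 60.1% of the normalized counts in control and 23.9 to 57.0% in PTU exposed libraries. The study's methods report some degradation of the RNA from the captured VZ. Markers of the labelled tissue were present, since all 9 radial glial genes looked for had a value in every pup, and their sum was 74103 to 103275 normalized counts in controls and 61434 to 81303 in PTU exposed pups. Markers of the choroid plexus, which lies beside the VZ, were also present in every pup. The study states that choroid plexus cells were not part of its RNA sequencing.

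Promoter sequences of the cilium genes are shown first because the same short sequence recurs in both classes of genes. RFX factors, which act on cilium genes in general, bind an X-box made of an inverted pair of short sites, and 1 such site, called the core site here, was searched for as GTTGCC on both strands, so that it reads GGCAAC where it lies on the strand opposite to the gene. Within the 300 bases around the annotated start of each gene (250 before, 50 after, RefSeq, build GRCr8), 12.2% of all 33469 promoters held a core site. Of the 75 members with a promoter entry, 27 did (36.0%), with 7 of 17 transport genes (41.2%) and 19 of 56 motile axoneme genes (33.9%). Motile axoneme genes with an unadjusted p under 0.05 in the comparison of the groups held it in 7 of 21 promoters (33.3%), and the others in 12 of 35 (34.3%). An inverted pair of looser sites, in which GTTNCC is followed after any 2 bases by its own reverse complement and which can overlap a core site, was held by 4 of 56 motile axoneme promoters (7.14%), by 0 of 17 transport promoters and by 0.472% of all promoters. The forkhead letters GTAAACA, searched on both strands, were found in 2 of 56 motile axoneme promoters (3.57%), 0 of 17 transport promoters and 3.78% of all. No promoter entry was at hand for Bbs10, Cfap157, Cfap410, Cfap52, Cfap53, Cfap73, Dnaaf1, Dnaaf11, Dnah3, Dnai4, Ift57, Ift74, Ift80, Rsph1 and Rsph4a.

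The following 60-base windows lie before the gene start and are written 5′ to 3′ on the strand of the gene, with core sites in capitals. They are from all 4 motile axoneme genes that had both a core site before the start and an unadjusted p under 0.05, and show the letters around it in genes that were lower in the PTU exposed pups. The window of Cfap298 holds 2 of the 4 core sites that lie before its start. These 2 sites are inverted but 3 bases apart and thus no match to the pair counted above. The promoter of Cfap298 did hold such a pair, not within this window, and is among the 4 motile axoneme promoters counted with it. Dnai2, Drc1 and Tekt1 each held 1 core site before the start.
Cfap298, chr11:43677433-43677492, minus strand: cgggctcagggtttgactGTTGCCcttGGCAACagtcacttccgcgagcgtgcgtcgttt
Dnai2, chr10:100258940-100258999, plus strand: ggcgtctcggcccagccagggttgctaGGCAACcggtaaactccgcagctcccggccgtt
Drc1, chr6:31779257-31779316, minus strand: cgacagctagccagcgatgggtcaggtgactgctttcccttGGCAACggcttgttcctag
Tekt1, chr10:57479128-57479187, minus strand: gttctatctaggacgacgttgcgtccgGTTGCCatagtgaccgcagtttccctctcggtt

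The next windows are from all 4 transport genes with a core site before the start, none of which had an unadjusted p under 0.05, and are shown for comparison. Each held 1 core site. A match to these letters is a description of the sequence and not evidence of a bound factor.
Bbs5, chr3:74818574-74818633, plus strand: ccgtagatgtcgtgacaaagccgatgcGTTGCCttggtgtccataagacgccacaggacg
Ift27, chr7:111635109-111635168, minus strand: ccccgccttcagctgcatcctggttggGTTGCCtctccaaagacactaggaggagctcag
Ift81, chr12:39618562-39618621, plus strand: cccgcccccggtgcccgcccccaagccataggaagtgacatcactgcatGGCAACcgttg
Ift88, chr15:35688926-35688985, plus strand: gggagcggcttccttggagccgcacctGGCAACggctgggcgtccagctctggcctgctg

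Most genes of the motile axoneme had lower values in the PTU exposed VZ, although none passed the test, whereas most genes of transport differed little. Of the 67 motile axoneme genes, 63 had a lower and 4 a higher mean log2 value in PTU exposed than in control pups, with a median log2 fold change of -0.36 and quartiles of -0.51 and -0.22. Of the 21 transport genes, 15 were lower and 6 higher, with a median of -0.05 and quartiles of -0.18 and 0.00. Over all 14606 transcripts the median was 0.00, the quartiles were -0.17 and 0.17, and 49.3% had a negative log2 fold change. Within each pup, the median of the motile axoneme genes minus that of the transport genes (log2 values, each gene centred on its mean over all pups) lay between -0.04 and 0.48 in the controls and between -0.42 and 0.18 in the PTU exposed pups, so the groups overlapped. The difference between the 2 classes was not tested. Markers of other cells moved with these genes: all 13 choroid plexus markers had lower values (median log2 fold change -0.67), as did all 9 radial glial markers (median -0.36), and 9 of 10 neuronal markers had higher values (median 0.33). With the choroid plexus score added to the limma model, the motile axoneme median was -0.22, and 8 in place of 25 of these genes were lower at an unadjusted p under 0.05.

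No single gene passed the test in the main fit, which had no pup weights and no block. Fits with pup weights or a replicate block, in which 1 and 2 members passed, are given in the last section. With limma on log2(normalized count + 1) and Benjamini-Hochberg adjustment over all 14606 transcripts, 0 transcripts (0.0%) and 0 of the 90 cilium genes reached the threshold of 0.05, with minima of the adjusted p at 0.0981 over all transcripts and 0.122 among the cilium genes. At an unadjusted p under 0.05, 29 of the 90 cilium genes were lower and 0 were higher, beside 8.2% of all transcripts lower and 8.11% higher. These were 25 of 67 motile axoneme genes (37.3%) and 4 of 21 transport genes (19.0%). A log2 fold change under -0.5 was seen in 19 motile axoneme genes and 1 transport gene, beside 5.22% of all transcripts. The lowest control pup stayed above the highest PTU exposed pup in 0 of the 90 genes (0.26% of all transcripts, and 0.596% in either direction), so the groups overlapped in every one of them. Leaving out PTU 2, the PTU exposed pup with the highest motile axoneme values, brought 5 of the 90 genes under an adjusted p of 0.05 (limma, Benjamini-Hochberg), among 179 of all transcripts, and the count at an unadjusted p under 0.05 was then 39 in place of 25 in the motile axoneme class, beside 10.2% of all transcripts. Leaving out PTU 6, the pup with the lowest motile axoneme values, gave 19, beside 6.14% of all transcripts, and leaving out Control 2, Control 3 or PTU 5 gave 20 each, beside 7.04, 6.24 and 7.37%.

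**Figure D1:**
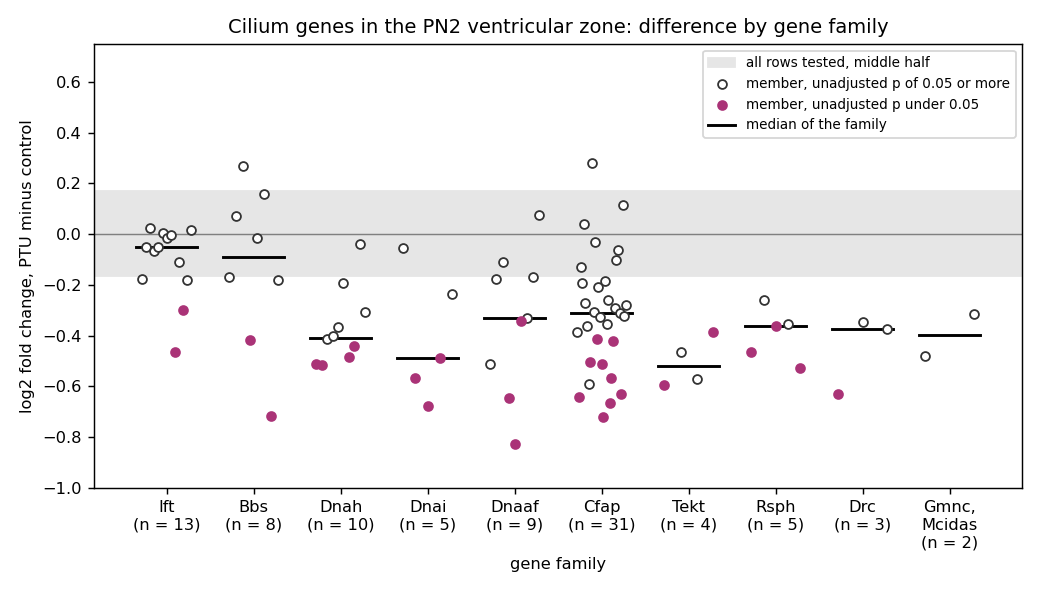
Log2 fold change (PTU minus control, y axis) of each of the 90 cilium genes by gene family (x axis), with filled points for genes with an unadjusted p under 0.05, black lines at family medians and the grey band between the lower and upper quartile of all 14606 transcripts. The Ift and Bbs medians lie inside the band (-0.05 and -0.09), while the medians of the 7 motile axoneme families lie between -0.52 and -0.31, below it.

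The plot of fold changes by family shows that the shift was spread over every motile axoneme family. All 7 family medians were under -0.30 and outside the middle range of all transcripts, whereas both transport families had medians inside it. These levels depend on the scaling between libraries. When every library was set to the same total instead of the median ratio scaling of the deposited values, the median of all transcripts moved to 0.20, the motile axoneme median to -0.16 with 51 of 67 genes lower, and the transport median to 0.15 with 4 of 21 lower. At an unadjusted p under 0.05, 1 in place of 25 motile axoneme genes and 0 in place of 4 transport genes were then lower, beside 0.555% of all transcripts. Equal totals move all genes of a pup by nearly the same amount, so the medians relative to all transcripts, -0.36 and -0.05, change little by construction.

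Dynein arms are the motors of the motile axoneme, and their heavy chains (Dnah) carry the motor domain. All 10 heavy chain genes had a lower mean in PTU exposed pups (8 of 10 with equal totals), with a family median of -0.41. Of these, 4 (40.0%) had an unadjusted p under 0.05, beside 8.2% of all transcripts lower at that p. Dnah11, a heavy chain of the outer arm, ranged from 1062 to 1483 normalized counts in the controls (median 1143) and from 556 to 1306 in the PTU exposed pups (median 836). It was lower in 5 of 6 PTU exposed pups than in any control, the exception being PTU 2 (log2 fold change -0.52, SE 0.15, adjusted p = 0.148). Dnah1, a heavy chain of the inner arm, lay between 735 and 1583 normalized counts in the control VZ, with a median of 1023, and between 568.03 and 1046 after PTU exposure, with a median of 728. The mean of the controls exceeded all 6 PTU exposed values, although only 3 of them were below the lowest control (log2 fold change -0.51, SE 0.18, adjusted p = 0.187). Of the other inner arm heavy chains, Dnah6 had a lowest, median and highest value of 689, 1049 and 1502 normalized counts in the control pups and of 464, 692 and 1359.6 in the PTU exposed pups (log2 fold change -0.48, SE 0.21, adjusted p = 0.272), and Dnah7 had a log2 fold change of -0.44 (SE 0.19, adjusted p = 0.273). In both, PTU 2 lay among the controls and PTU 6 was the lowest pup of all. Dnah9, also an outer arm heavy chain, had a log2 fold change of -0.31 (SE 0.15, adjusted p = 0.329). Dnah8 is known from the sperm flagellum and had low values here, from 5.15 to 25.3 normalized counts, with -0.04 as its log2 fold change and a 95% confidence interval of -1.04 to 0.96.

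The intermediate chains (Dnai) hold the heavy chains on the doublet. All 5 were lower (4 of 5 with equal totals), with a median of -0.49, and 3 had an unadjusted p under 0.05. Dnai2, of the outer arm, ranged from 181 to 370.0 normalized counts in the controls (median 271) and from 106 to 227 in the PTU exposed pups (median 199). All 6 PTU exposed values were below the control mean (log2 fold change -0.57, SE 0.21, adjusted p = 0.209). Dnai3, of an inner arm, had a lowest, median and highest value of 469, 799.8 and 1262 normalized counts in the control pups and of 344, 454 and 886 in the PTU exposed pups (log2 fold change -0.68, SE 0.24, adjusted p = 0.187), and here Control 2 and Control 3 were high and PTU 2 lay above the control mean. Dnai4 had a log2 fold change of -0.49 (SE 0.17, adjusted p = 0.175), and the control mean exceeded all 6 PTU exposed values.

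Before they enter the cilium, dynein arms are put together in the cytoplasm by assembly factors (Dnaaf). Of these 9 genes, 8 were lower and 1 was higher (5 of 9 lower with equal totals), with a median of -0.33. Dnaaf4 had the largest difference of all 90 genes and ranged from 125 to 297 normalized counts in the controls (median 201) and from 76.1 to 199.7 in the PTU exposed pups (median 103). The groups overlapped through PTU 2 and PTU 3, and the other 4 PTU exposed pups were below the lowest control (log2 fold change -0.83, SE 0.26, adjusted p = 0.161). Dnaaf3 lay between 211 and 508 normalized counts in the control VZ, with a median of 342, and between 131 and 381 after PTU exposure, with a median of 213 (log2 fold change -0.65, SE 0.23, adjusted p = 0.199). The high values of the PTU exposed group in these genes came from PTU 2 and the high control values from Control 2 or Control 3. Dnaaf5 had a log2 fold change of -0.34 (SE 0.14, adjusted p = 0.258). Dnaaf9 was the member on the other side of 0 (log2 fold change 0.08, SE 0.09, adjusted p = 0.686), and its 95% confidence interval of -0.11 to 0.26 lay above the log2 fold change of Dnaaf4.

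The 31 Cfap genes are a mixed group of cilium and flagellum associated proteins, many of which sit in the doublet or in the complexes that link its parts. Of these, 28 were lower and 3 higher (22 of 31 lower with equal totals), with a median of -0.31. At an unadjusted p under 0.05, 9 were lower (29.0%), beside 8.2% of all transcripts. Cfap52, a protein inside the doublet microtubule, ranged from 1145 to 2257 normalized counts in the controls (median 1344) and from 711 to 1242 in the PTU exposed pups (median 885). It had the smallest p of the 90 genes, and 5 of 6 PTU exposed pups were below the lowest control, with PTU 2 the 1 pup inside the control range (log2 fold change -0.72, SE 0.16, adjusted p = 0.122). Cfap126, a protein of the basal body region, had a lowest, median and highest value of 402, 543 and 627 normalized counts in the control pups and of 209, 318 and 607 in the PTU exposed pups. Again 5 of 6 PTU exposed pups lay below every control, but the exception here was PTU 4 and not PTU 2 (log2 fold change -0.64, SE 0.19, adjusted p = 0.148). Cfap61, a protein of the radial spoke base, lay between 336 and 895 normalized counts in the control VZ, with a median of 447, and between 219 and 497 after PTU exposure, with a median of 308 (log2 fold change -0.67, SE 0.22, adjusted p = 0.171). Cfap91, of the same spoke base, had a log2 fold change of -0.63 (SE 0.24, adjusted p = 0.213), and Cfap45, inside the doublet, a log2 fold change of -0.51 (SE 0.19, adjusted p = 0.208). Cfap298, which takes part in dynein arm assembly, ranged from 1575 to 2714 normalized counts in the controls (median 2187) and from 1121 to 2468 in the PTU exposed pups (median 1447), a log2 fold change of -0.50 (SE 0.17, adjusted p = 0.175). Cfap410, a basal body protein that primary cilia also use, lay between 539 and 716 normalized counts in the control VZ, with a median of 632, and between 312 and 573 after PTU exposure, with a median of 496. All 6 PTU exposed pups were under the mean of the controls (log2 fold change -0.41, SE 0.13, adjusted p = 0.171). The remaining Cfap genes with an unadjusted p under 0.05 were Cfap65 (-0.57, adjusted p = 0.226) and Cfap69, of the central pair (-0.42, adjusted p = 0.265). Cfap36 had a lowest, median and highest value of 2294, 3206 and 4318 normalized counts in the control pups and of 2462, 3074 and 4388 in the PTU exposed pups. Its log2 fold change of -0.03 had a 95% confidence interval of -0.35 to 0.29 and turned to 0.17 with equal totals.

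Tektins (Tekt) are filaments inside the doublet, radial spokes (Rsph) join it to the central pair, and the nexin-dynein regulatory complex (Drc) links neighbouring doublets. All 12 genes of these families were lower in the PTU exposed VZ, with equal totals as well. Tekt1 ranged from 544 to 888 normalized counts in the controls (median 659) and from 267 to 706 in the PTU exposed pups (median 441), with 4 of 6 PTU exposed pups below the lowest control (log2 fold change -0.60, SE 0.19, adjusted p = 0.171). Tekt4 had a smaller difference (log2 fold change -0.39, SE 0.18, adjusted p = 0.296). Drc1, which is needed to build the complex, lay between 1201 and 2092 normalized counts in the control VZ, with a median of 1541, and between 579 and 1875 after PTU exposure, with a median of 1028. Again 4 of 6 PTU exposed pups were below every control, while PTU 2 reached the upper part of the control range (log2 fold change -0.63, SE 0.20, adjusted p = 0.171). Rsph9, of the spoke head, had a lowest, median and highest value of 424, 624 and 721 normalized counts in the control pups and of 267, 412 and 665 in the PTU exposed pups (log2 fold change -0.53, SE 0.18, adjusted p = 0.182), and Rsph1, of the same head, had a log2 fold change of -0.46 (SE 0.20, adjusted p = 0.263). Rsph3, of the spoke stalk, ranged from 384 to 557 normalized counts in the controls (median 416) and from 287 to 403 in the PTU exposed pups (median 345). In this gene, too, all 6 PTU exposed pups were under the mean of the controls (log2 fold change -0.36, SE 0.13, adjusted p = 0.19). Rsph4a, of the spoke head, had a log2 fold change of -0.35 (SE 0.21, adjusted p = 0.414).

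Against these stand the genes of transport. Among the 13 Ift genes 10 were lower and 3 higher, with a median of -0.05. At an unadjusted p under 0.05, 2 were lower (15.4%), beside 8.2% of all transcripts. With equal totals 2 of 13 were lower. Ift57, a subunit of the complex IFT-B that moves cargo toward the tip, ranged from 864 to 1339.9 normalized counts in the controls (median 1109.9) and from 597 to 1079.8 in the PTU exposed pups (median 772). All 6 PTU exposed pups were below the control mean (log2 fold change -0.46, SE 0.14, adjusted p = 0.164). Ift80, also of IFT-B, had a log2 fold change of -0.30 (SE 0.14, adjusted p = 0.297), with PTU 2 apart from the other PTU exposed pups at 571 normalized counts. Ift140, a subunit of IFT-A that serves the return from the tip, lay between 1569 and 2147 normalized counts in the control VZ, with a median of 1902, and between 1561 and 2153 after PTU exposure, with a median of 1908. Its groups covered the same range, and its log2 fold change of -0.05 had a 95% confidence interval of -0.25 to 0.15 and turned to 0.15 with equal totals.

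Of the 8 Bbs genes, which encode subunits of the BBSome or, like Bbs10 and Bbs12, chaperonin-like proteins that help to assemble it, 5 were lower and 3 higher (2 of 8 lower with equal totals), with a median of -0.09. Bbs2 ranged from 581 to 777 normalized counts in the controls (median 676) and from 411 to 660.0 in the PTU exposed pups (median 511), and 5 of 6 PTU exposed pups were below the lowest control (log2 fold change -0.42, SE 0.12, adjusted p = 0.148). Bbs7 had a lowest, median and highest value of 209, 259 and 348 normalized counts in the control pups and of 88.3, 183 and 240.3 in the PTU exposed pups. It was the 1 transport gene with a log2 fold change under -0.5, and 5 of 6 PTU exposed pups were below every control (log2 fold change -0.72, SE 0.22, adjusted p = 0.155). PTU 5 was the lowest of them at 88.3. Bbs1, a BBSome subunit, lay between 1344 and 1756 normalized counts in the control VZ, with a median of 1538, and between 1129.9 and 1488 after PTU exposure, with a median of 1434. Its log2 fold change of -0.17 moved to 0.03 with equal totals. The log2 fold changes of Bbs2 and Ift57 lay between the quartiles of the motile axoneme genes and that of Bbs7 below them, whereas Ift140 and Bbs1 lay above.

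The regulators Gmnc and Mcidas start the program of multiciliated cells. Gmnc ranged from 60.9 to 262 normalized counts in the controls (median 168) and from 73.3 to 175 in the PTU exposed pups (median 120.0), a log2 fold change of -0.48 (SE 0.30, adjusted p = 0.432). The groups overlapped widely, since the lowest pup of all was Control 6, at 60.9, and an exact permutation test over all 1716 regroupings gave a two-sided p of 0.177 (0.354 adjusted over the 2 regulators). Mcidas had a lowest, median and highest value of 19.7, 60.7 and 133 normalized counts in the control pups and of 32.5, 39.7 and 76.2 in the PTU exposed pups (log2 fold change -0.32, SE 0.41, adjusted p = 0.732). The exact permutation p of Mcidas was 0.495 (two-sided). Its control pups spread from the lowest to the highest value of all 13, and the 95% confidence interval of its log2 fold change, -1.18 to 0.55, spans the medians of both classes of cilium genes.

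**Figure D2:**
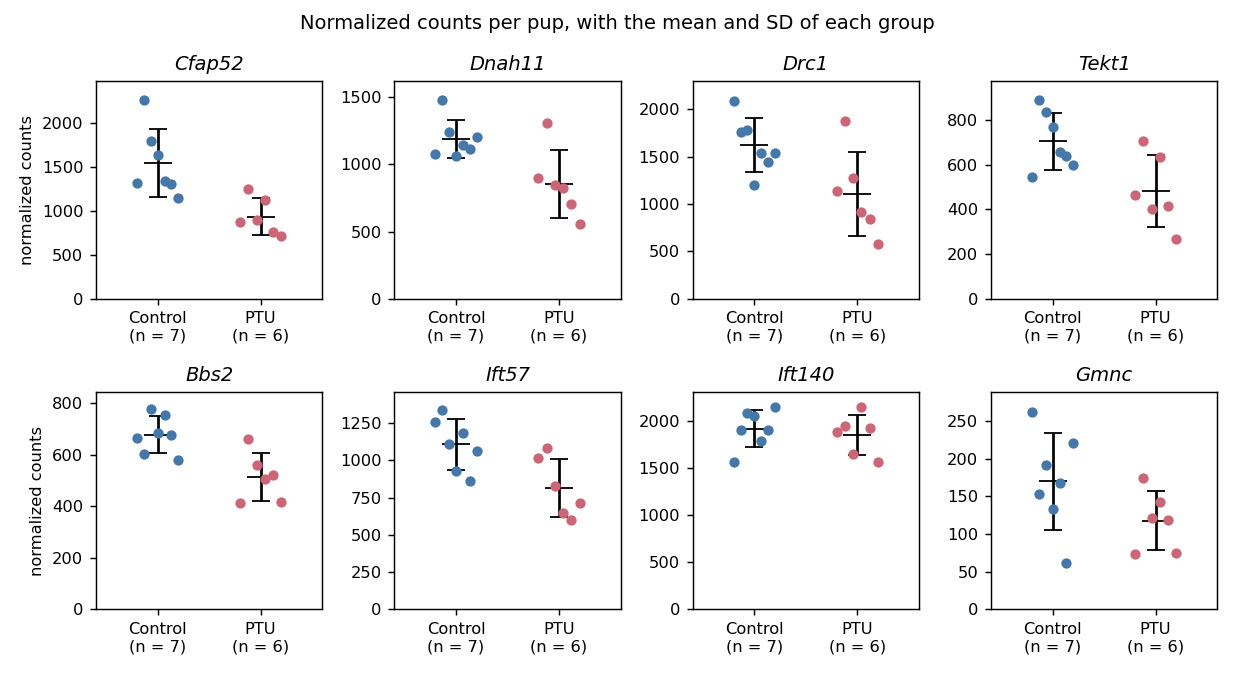
Normalized counts (y axis) of 8 cilium genes in each pup, as points for 7 control and 6 PTU exposed pups (x axis), with horizontal lines at the group mean and error bars of 1 SD. In the top panels (Cfap52, Dnah11, Drc1, Tekt1) most PTU exposed pups lie below the control mean, Bbs2 and Ift57 do the same, Ift140 covers the same range in both groups and Gmnc overlaps widely.

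Values of single genes in the plot of 8 genes make the same point per pup: the 1 PTU exposed pup inside the control range is PTU 2 in each of Cfap52, Dnah11 and Bbs2, and PTU 2 is also the highest PTU exposed pup in the other 4 plotted genes besides Ift140. The spread between pups of a group was wider in the motile axoneme genes than in transport genes. The median SD within groups was 0.42 on the log2 scale for motile axoneme genes, 0.22 for transport genes and 0.28 over all transcripts.

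Many motile axoneme genes were high or low in the same pups. When each gene was centred on its mean over all 13 pups, the median of the 67 motile axoneme genes was 0.65 in Control 2, 0.50 in Control 3 and 0.15 in Control 4, and lay between -0.06 and 0.04 in the other 4 controls. In the PTU exposed pups it was 0.34 in PTU 2, -0.07 in PTU 1, -0.18 in both PTU 3 and PTU 4, -0.39 in PTU 5 and -0.68 in PTU 6. The groups thus overlapped only through PTU 2, as PTU 1 was just below the lowest control. Control 2 was the highest control in 42 of the 67 genes, PTU 2 the highest PTU exposed pup in 44, and PTU 6 the lowest in 39. The same median for the 21 transport genes covered a smaller range, from -0.04 to 0.20 in controls and from -0.26 to 0.16 in PTU exposed pups, and PTU 6 was again the lowest.

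**Figure D3:**
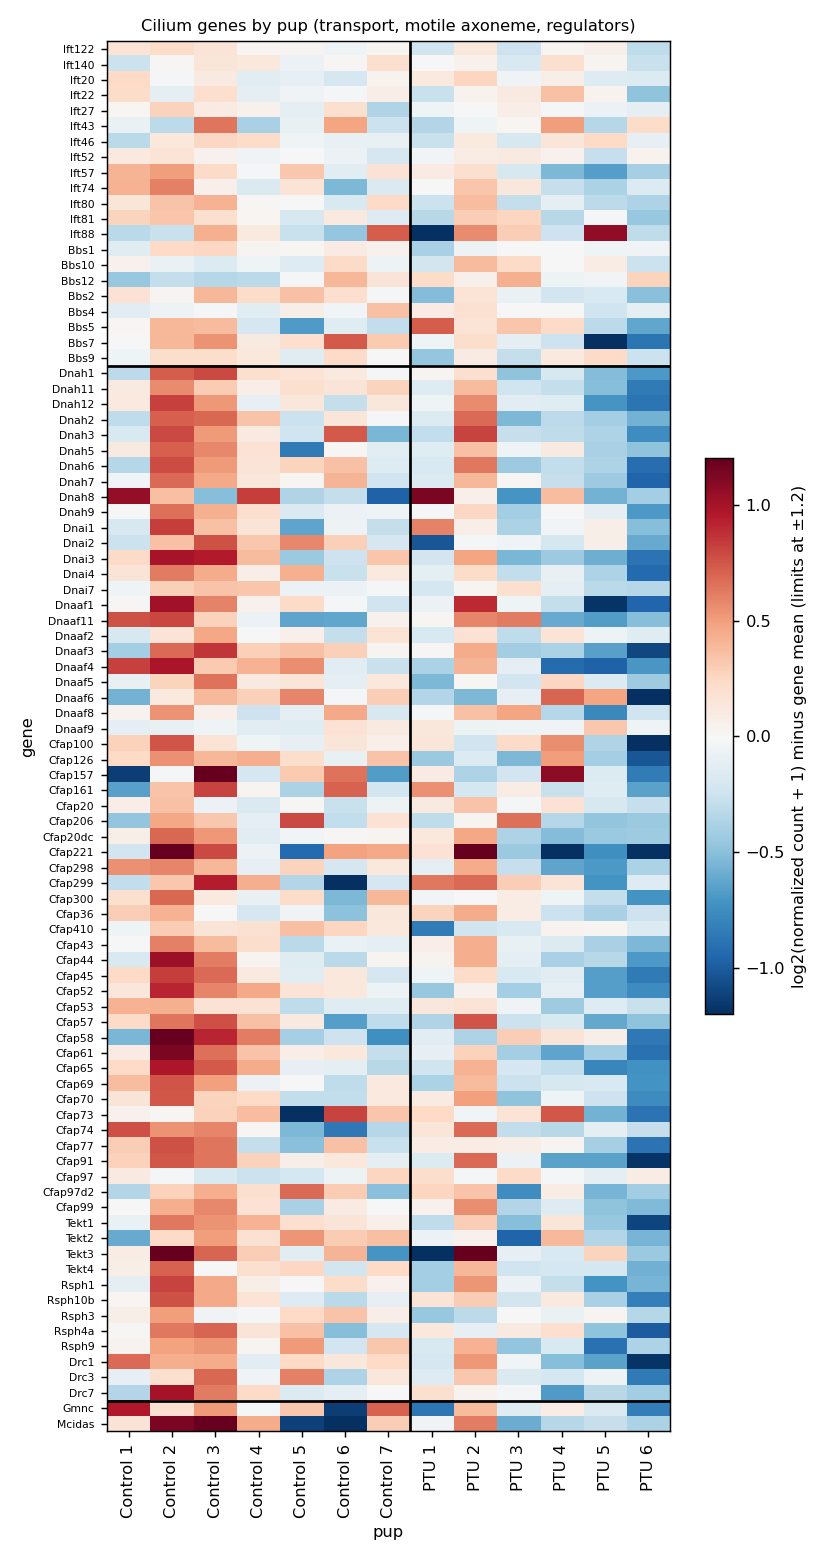
Log2(normalized count + 1) minus the mean of each gene (color, limits at 1.2 in either direction) for the 90 cilium genes (y axis) in each of 13 pups (x axis), with black lines between transport, motile axoneme and regulator genes and between the groups. Control 2, Control 3 and PTU 2 are red in most motile axoneme genes and PTU 6 is blue in most, while the transport genes are pale in nearly all pups.

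In the color map of all 90 genes, the motile axoneme block reads as columns of 1 color, that is, as pups in which most of these genes are high or low at once. Dnah8, Cfap157, Cfap221, Cfap299, Tekt3 and Ift88 stand out from their columns, and were chosen for mention after their values were seen.

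Cilium genes outside the named families were read from a list of 98, of which 82 had a transcript. Of these, 66 were lower and 16 higher, and at an unadjusted p under 0.05, 19 were lower (23.2%, beside 8.2% of all transcripts) and 2 higher (2.44%, beside 8.11%), again with 0 at an adjusted p of at most 0.05. The 26 genes of motile cilia with a transcript had a median log2 fold change of -0.35, with 24 lower and 9 of them (34.6%) at an unadjusted p under 0.05, while the 43 genes of primary cilia and transport had a median of -0.11, with 30 lower, 8 lower (18.6%) at an unadjusted p under 0.05 and 2 higher. The 13 genes of the multiciliated cell program had a median of -0.31, with 12 lower and 2 (15.4%) at that p. The following were named after their values were seen. Dynlrb2, a dynein light chain, ranged from 591 to 1277 normalized counts in the controls (median 791) and from 266 to 825 in the PTU exposed pups (median 346), a log2 fold change of -1.04 (SE 0.23, adjusted p = 0.122). Spag17, of the central pair, and Mns1, inside the doublet, were lower by the same measure (-0.58, adjusted p = 0.242, and -0.55, adjusted p = 0.214). In the other direction, Kifap3, a subunit of the kinesin that drives anterograde transport, was higher (log2 fold change 0.38, SE 0.12, adjusted p = 0.153), and so was Lztfl1, a regulator of the BBSome (log2 fold change 0.35, SE 0.17, adjusted p = 0.299). Without Control 2, 8 of the 82 genes were lower at an unadjusted p under 0.05 (7.04% of all transcripts), as also without PTU 6 (6.14% of all). Without Control 3 the count was 10 (6.24% of all), and without PTU 2 it was 29 (10.2% of all).

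Of the markers of other cell types, 0 passed an adjusted p of 0.05 (limma, Benjamini-Hochberg), and their counts at an unadjusted p under 0.05 stand beside 8.2% of all transcripts lower and 8.11% higher. In bulk tissue, fewer cells of a type and less RNA per cell cannot be told apart. A transcript was found for 13 of 14 choroid plexus markers, and 6 of them were lower at that p. Summed over the 13 markers they gave 52195 to 146222 normalized counts per control and 24499 to 105104 per PTU exposed pup, and 0 of them were at 0 in any pup. Of the radial glial markers 6 of 9 were lower at that p, and of the neuronal markers 5 of 10 were higher. Neuronal markers summed to 57475 to 83558 normalized counts in controls and 75010 to 132798 in PTU exposed pups. Of the ependymal markers outside the named families, 7 of 8 had a transcript and 6 were lower (median log2 fold change -0.14), 2 at that p, 1 of them Dynlrb2, which is also on the list of motile cilium genes. Their sum was 3791 to 7581 in controls and 4072 to 6366 in PTU exposed pups. Of the markers for other cells, 1 microglial gene of 6 was lower and 1 oligodendrocyte lineage gene of 5 was higher at that p, and 0 of 5 endothelial and 0 of 3 meningeal genes passed it.

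**Figure D4:**
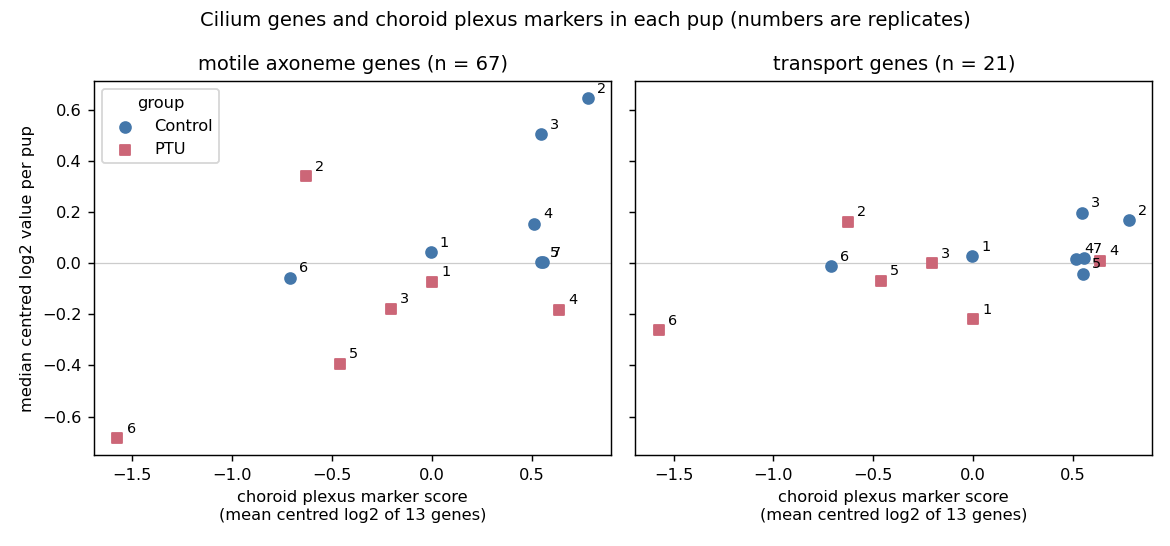
Median centred log2 value of the 67 motile axoneme genes (left) and the 21 transport genes (right) in each pup (y axis) against the mean centred log2 value of 13 choroid plexus markers (x axis), with blue circles for 7 control and red squares for 6 PTU exposed pups and replicate numbers beside them. PTU 6 is lowest on both axes of the left panel (-0.68 and -1.57), whereas PTU 2 has a high motile axoneme median (0.34) at a low choroid plexus score (-0.63).

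The plot of pups by choroid plexus score shows which libraries tie the marker to the cilium genes. Control 2 was highest on both measures and PTU 6 lowest on both, but Control 6 and PTU 2 had low choroid plexus scores (-0.71 and -0.63) with motile axoneme medians of -0.06 and 0.34, and PTU 4 had the highest score of its group (0.64) with a median of -0.18. With this score added to the limma model, the motile axoneme median was -0.22 in place of -0.36, 51 of 67 genes were lower, and 8 were lower at an unadjusted p under 0.05, beside 6.42% of all transcripts. The transport median was then -0.02, with 11 of 21 lower and 3 at that p. The motile axoneme genes that remained at that p were Cfap298, Cfap410, Cfap52, Cfap61, Dnaaf4, Dnah11, Drc1 and Rsph3, and the transport genes were Bbs2, Bbs7 and Ift57. With the neuronal marker score as a covariate, the medians were -0.26 and -0.02, and 16 motile axoneme and 3 transport genes were lower at that p, beside 5.46% of all transcripts. The choroid plexus score itself had a mean of 0.32 in controls and -0.37 in PTU exposed pups. The part of choroid plexus, neuronal, radial glial and ependymal cells in the difference was not tested.

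**Figure D5:**
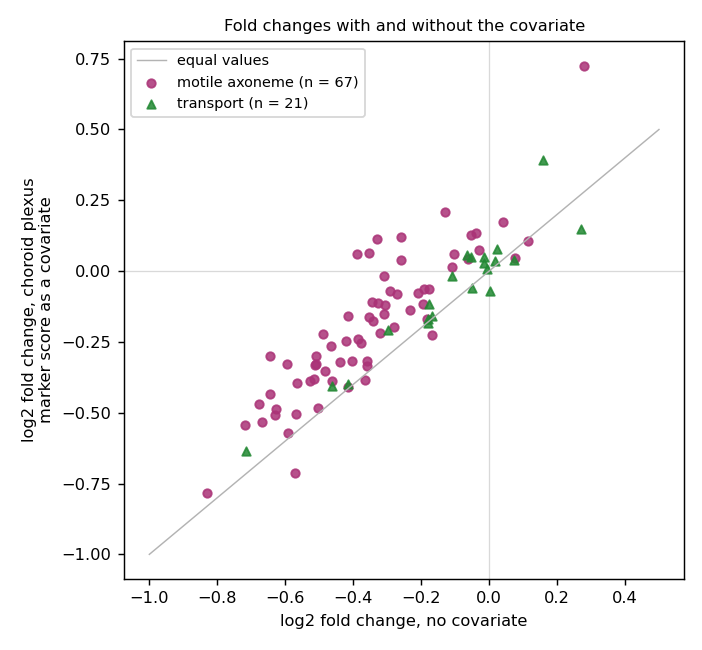
Log2 fold change (PTU minus control) of 67 motile axoneme genes (circles) and 21 transport genes (triangles) without a covariate (x axis) and after adding the choroid plexus score to the model (y axis), with a gray line where both are equal. Most motile axoneme genes lie above the line, their median moving from -0.36 to -0.22, while Dnaaf4 (-0.83 and -0.78), Cfap298 (-0.50 and -0.48) and Bbs2 (-0.42 and -0.40) lie close to it.

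Genes differed in how far the covariate moved them, as the plot of both fold changes shows. Dnaaf4, Cfap298, Cfap410 and Bbs2 kept 94.6, 95.4, 99.0 and 95.9% of their log2 fold change, and Cfap52 kept 75.3%. Cfap126, Dnai4 and Tekt1 kept 46.4, 44.9 and 55.2%. Rsph4a went from -0.35 to 0.06. The 3 genes Dnah8, Cfap36 and Ift140, which were close to 0 without the covariate, were at 0.13, 0.07 and 0.05 with it.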

How the data were processed

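RNA from the captured VZ of 7 control and 6 PTU exposed pups was sequenced with a stranded total RNA kit. Per the labels and the study's methods, the authors trimmed reads with Trimmomatic, aligned them with STAR 2.7.8a to mRatBN7.2, and estimated transcript counts in Partek (E/M), which they scaled by the median ratio method. What they deposited is thus a scaled signal, here called normalized counts, in which raw counts are no longer seen. As 89.96 to 91.67% of low values were whole multiples of a step, too few to recover whole reads for each gene, no count model was used. Columns of the authors' DESeq2 comparison (p-value, FDR, ratio, fold change, means) hold their findings and were not used.

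Transcripts with a mean of at least 10 (14606 of 14716) were compared on log2(normalized count + 1) with limma 3.58.1 in R 4.3.3 (empirical Bayes with a variance trend, Benjamini-Hochberg over all of them, threshold 0.05). Fold changes are on this scale and understate those of low genes. The samples were grouped by their labels, 1 pup per litter. The pups come from different litters, and the main fit did not pair them by replicate number. Whether same-numbered pups were handled together is not stated in the labels. Their correlation was -0.07 to 0.20, over 0.1 in 4 of 6 pairs. Named genes are the regulators, each member with an unadjusted p under 0.05, the member with the highest mean normalized count (not scaled by length) and that with the largest difference in each family, and the member nearest the minimum. The members and lists were chosen with earlier results of these data known. 1 gene of the lists is not reported here. Levels were not compared between genes, as lengths were not used. Promoters are from RefSeq (GRCr8). A genome was not used here. The limma step was tested on simulated data for this comparison with 14606 rows: log2 changes of 0.5, 1, 2 and 4 were given to 50 transcripts each, and 21, 35, 46 and 50 of these were called, beside 14 of 14406 left as they were. The simulated noise was independent between transcripts, whereas in the real data many genes were high or low in the same pups. The shares called may thus differ in the real data. Summaries were made in Python 3.11.15 (pandas 2.3.3, numpy 2.4.6) and plots with matplotlib 3.10.9.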

Additional observations from a re-analysis of the deposited data

Results flagged for a closer look

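In 8 of 76 tests of a group of pups for 1 gene, the highest or lowest pup lay apart from the rest by Dixon's criterion, which chance alone meets in about 1 of 20 groups. PTU 2 was the high pup in 4 of these: Dnah6, at 1360 normalized counts against 464 to 772 in the other PTU exposed pups, Tekt4, at 285 against 144 to 186, Ift80, at 571 against 342 to 409, and Mcidas, at 76.2 against 32.5 to 47.9. Control 2 was high in Dnah11, at 1483 against 1062 to 1243 in the other controls, and in Tekt4, at 353 against 185 to 257. Control 3 was high in Dnaaf5, at 1062 against 628 to 812. PTU 1 was low in Bbs1, at 1129.9 against 1421 to 1488.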

How the results depend on the processing

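Of 26 alternatives, pseudocounts of 0.1 and 10, no minimum, a minimum mean of 100, TMM factors, quantile normalization, no variance trend and summed transcripts of a gene left every count within 1.5 times its value and reversed no named gene. With equal totals, 1 cilium gene in all, 1 of the motile axoneme, 0 of transport and 2 of the other cilium genes were lower at an unadjusted p under 0.05 (29, 25, 4 and 19 with the deposited scaling), beside 0.555% of all transcripts in place of 8.2%, the transport median was 0.15, and Cfap36 (0.17), Dnah8 (0.15), Bbs1 (0.033) and Ift140 (0.15) reversed. With the choroid plexus score as a covariate the counts were 11, 8 and 6 (members, motile axoneme, other cilium genes), beside 6.42% of all transcripts, and Cfap36 (0.0746), Dnah8 (0.13), Rsph4a (0.0632) and Ift140 (0.051) reversed; with the neuronal score they were 19, 16 and 8, beside 5.46%. With pups weighted by quality the counts were 44, 40 and 30, beside 10.4% of all transcripts, and 1 member, Cfap52, passed the adjusted threshold, among 40 of all transcripts. With the replicate number as a block, 2 members passed (Cfap52 and Cfap65), among 18 of all transcripts, the motile axoneme count was 38 and that of other cilium genes 31, beside 10.2% of all transcripts, and no other named gene changed its call; 1 of 6 PTU exposed pups correlated best with the control of its own number.

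Leaving out 1 pup at a time, 0 to 5 members passed the adjusted threshold, 22 to 44 members, 19 to 39 motile axoneme genes and 8 to 29 other cilium genes were lower at an unadjusted p under 0.05, beside 6.14 to 10.2% of all transcripts, and Cfap36 (-0.12 to 0.0441) and Dnah8 (-0.27 to 0.14) changed sign. The lowest counts of members and motile axoneme genes came without PTU 6 and the upper ends without PTU 2, where Cfap52, Dnah11, Drc1, Cfap298 and Bbs2 had adjusted p of 0.0324, 0.0324, 0.0391, 0.0423 and 0.0493. The cause of these changes was not tested. The depth behind each value is known only as an estimate for the whole library.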
